A study of Mus musculus with 8 samples.

Results

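Dendritic cells are antigen-presenting leukocytes that are rare in adipose tissue and share many surface molecules with macrophages. The data described here are the levels of 10 dendritic cell genes, *Flt3*, *Zbtb46*, *Xcr1*, *Clec9a*, *Batf3*, *Cd209a*, *Irf4*, *Fscn1*, *Ccl17* and *Ccl22*, in bulk RNA-Seq of macrophages sorted by the Fc receptor FCGR4. These 10 genes are 10 of the 54146 genes in the count table, and they are textbook dendritic cell genes that were selected on, or with knowledge of, their log2 fold changes between FCGR4+ and FCGR4- cells in these libraries, so their values in that contrast are a description. All 10 passed the filter on low counts, as did 17095 genes in all.

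The mice carried the C57Bl6 label as their genotype. All of them had eaten a high-fat diet ad libitum for 24 weeks and then had their food reduced by 30% for 2 weeks, so both populations come from calorie-restricted obese animals and no untreated animal was included. From the epididymal white adipose tissue (eWAT) of each of 4 mice, CD11b+ leukocytes negative for CD3, B220, Ly6G and SiglecF were separated into an FCGR4+ and an FCGR4- population, giving 8 libraries with between 35992794 and 66856746 counts. That gate named no marker that removes CD11b+ conventional dendritic cells, but it kept only CD11b+ cells and removed cells with B220, which plasmacytoid dendritic cells carry. *Fcgr4* itself was at 199 ± 42.4 CPM (counts scaled to a common library total) in FCGR4+ and 66.1 ± 18.3 CPM in FCGR4- libraries (mean ± SD, n = 4 each), a log2 fold change of 1.61 (SE 0.17, edgeR's quasi-likelihood test, adjusted p = 0.0162).

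Conventional dendritic cells arise in the bone marrow from precursors that depend on the cytokine FLT3L and its receptor FLT3, and they are recognized by the transcription factor ZBTB46. Type 1 cells (cDC1) take up dead cells and present their antigens to CD8 T cells, need the factor BATF3, and usually carry little CD11b. Type 2 cells (cDC2) depend in part on IRF4 and carry CD11b, and monocyte-derived cells that express the lectin CD209A are found beside them. When either type matures it reorganizes its actin skeleton with fascin, makes CCR7 and migrates to lymph nodes, and CCL17 and CCL22 then attract T cells that carry CCR4.

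The promoter windows of 3 of the genes are shown because *Flt3* and *Cd209a* had the lowest log2 fold changes among the genes of the 10 that passed the threshold in the contrast, and *Batf3* had the value nearest 0. Each window is the RefSeq sequence from 250 bases before to 50 bases after the start site on GRCm38.p6, the mm10 build, written 5′ to 3′ on the strand of the gene. *Flt3* is at chr5:147400440-147400739 on the minus strand, *Cd209a* at chr8:3748935-3749234 on the minus strand and *Batf3* at chr1:191098164-191098463 on the plus strand. Capitals mark a match to one of the motifs named after the sequences.
Flt3: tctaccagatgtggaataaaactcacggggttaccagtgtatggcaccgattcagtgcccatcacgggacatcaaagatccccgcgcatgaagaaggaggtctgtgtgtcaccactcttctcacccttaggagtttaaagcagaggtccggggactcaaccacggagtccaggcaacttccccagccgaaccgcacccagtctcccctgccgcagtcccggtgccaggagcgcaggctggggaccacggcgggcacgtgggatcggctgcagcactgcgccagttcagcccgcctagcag
Cd209a: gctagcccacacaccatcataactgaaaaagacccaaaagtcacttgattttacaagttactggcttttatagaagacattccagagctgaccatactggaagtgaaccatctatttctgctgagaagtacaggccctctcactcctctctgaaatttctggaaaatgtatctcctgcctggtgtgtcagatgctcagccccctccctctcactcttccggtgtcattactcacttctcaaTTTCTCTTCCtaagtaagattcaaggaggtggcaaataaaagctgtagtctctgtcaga
Batf3: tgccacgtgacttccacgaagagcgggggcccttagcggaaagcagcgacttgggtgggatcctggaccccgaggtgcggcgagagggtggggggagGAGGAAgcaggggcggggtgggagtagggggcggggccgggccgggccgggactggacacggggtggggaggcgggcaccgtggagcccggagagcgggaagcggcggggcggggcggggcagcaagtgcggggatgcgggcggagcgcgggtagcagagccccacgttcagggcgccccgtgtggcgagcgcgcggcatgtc

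All 10 genes had a window in the RefSeq table, and 5 motifs were searched on both strands. The ETS-IRF composite, GGAA and GAAA with any 2 bases between them, the kind of element that PU.1 and IRF4 or IRF8 bind together, was in 1 of 10 windows, that of *Cd209a*, where it begins 9 bases before the start site, and in 2.72% of all 32851 windows. The AP-1 letters TGANTCA were in the window of *Zbtb46* alone among the 10 and in 7.81% of all windows, and the PU.1 core GAGGAA was in those of *Batf3*, *Irf4* and *Ccl17* and in 28.3% of all. The interferon-response core, GAAA repeated with any 2 bases between, and the NF-kB consensus were in none of the 10 and in 3.44% and 8.46% of all windows. The PU.1 core and the composite share the letters GGAA, so that matches to them can overlap, but no window of the 10 held both. The *Batf3* window had a GC content of 75.67% and 34 CG dinucleotides, against 37% and 1 in the window of *Clec9a*. The windows of *Zbtb46* and *Batf3* lie wholly inside the deposited genes, whose first annotated base is further upstream. A match is a description of letters, not of binding.

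In the paired comparison of FCGR4+ with FCGR4- cells, 9 of the 10 genes had a log2 fold change below 0, and their median was -1.94, against -0.0025 for all tested genes. *Flt3*, *Cd209a*, *Fscn1* and *Ccl22*, 4 of the 10, passed an adjusted p of 0.1 as lower in FCGR4+ cells (edgeR's quasi-likelihood test, paired by mouse), where 1.19% of all tested genes did, and 0 of the 10 passed as higher (0 also by DESeq2 and at an unadjusted p under 0.05), where 0.0819% did. The FCGR4+ and FCGR4- libraries did not overlap, with FCGR4- higher, for 6 of the 10 genes and for 3.02% of all genes, and 8 of the 10 were lower in FCGR4+ cells in all 4 mice, as 10.4% of all genes were. Nothing is read from these counts, because the genes were chosen with the contrast known. Without mouse 1, 2, 3 or 4, the number of the 10 that passed as lower was 2, 1, 4 and 3, beside 0.48%, 0.714%, 0.901% and 0.515% of all genes. *Cd209a* passed with each of the 4 mice left out, and *Flt3*, *Fscn1* and *Ccl22* each passed in 2 of these 4 cases; without the pairing *Fscn1* alone of the 10 passed. The share of all genes called lower was 4.87% by DESeq2, 3.35% by edgeR's newer method, 2.35% with no filter on low counts, 0.275% without the pairing, 0.62% with mice 1 and 2 alone, 0.491% with mice 3 and 4 alone and 0.433% at an adjusted p of 0.05, and the closing section gives the number of the 10 under each. In bulk samples such as these, fewer cells of a type and less RNA per cell cannot be told apart.

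*Flt3* encodes the receptor tyrosine kinase for FLT3L and marks dendritic precursors and conventional dendritic cells. It was at 1.33, 1.58, 1.74 and 0.166 CPM in the FCGR4+ libraries of mice 1 to 4, against 9.18, 13.5, 9.51 and 7.79 CPM in the FCGR4- libraries. The populations did not overlap, every mouse had the lower value in FCGR4+ cells, and the FCGR4+ library of mouse 4 lay below the other 3. The fitted log2 fold change was -3.28 (SE 0.49), with ratios within mice between -5.27 and -2.43 on the log2 scale. *Zbtb46*, which is made by both types of conventional dendritic cell and also by endothelial cells, was at 2.64, 2.33, 3.25 and 1.24 CPM in FCGR4+ and 4.52, 5.56, 3.59 and 3.57 CPM in FCGR4- libraries. Its populations did not overlap either, but the gap was narrow, since mouse 3 had 3.25 CPM in FCGR4+ cells and the lowest FCGR4- value was 3.57 CPM. Its log2 fold change was -0.92 (SE 0.31), the nearest to 0 among the 9 genes with a negative value.

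**Figure D1:**
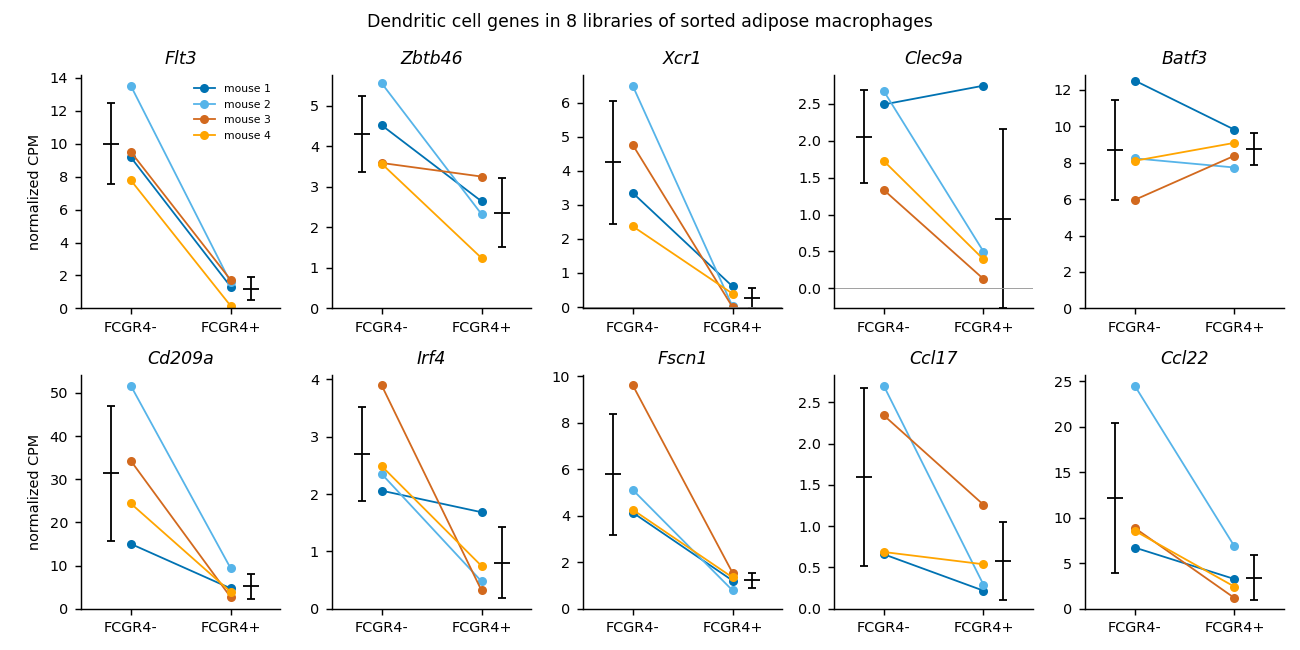
Normalized CPM of the 10 dendritic cell genes (linear axes, 1 panel per gene) in FCGR4- and FCGR4+ libraries, with a line joining the 2 libraries of each of 4 mice; black bars give the mean ± SD of 4 libraries. The populations do not overlap for *Flt3*, *Zbtb46*, *Xcr1*, *Cd209a*, *Irf4* and *Fscn1*, and the lines of *Batf3* cross.

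The 3 cDC1 genes had log2 fold changes from -4.60 to 0.05. *Xcr1*, the receptor for XCL1 and the most specific of them, was at 0.606, 0.0208, 0 and 0.394 CPM in FCGR4+ and 3.35, 6.50, 4.76 and 2.37 CPM in FCGR4- libraries. These FCGR4+ values rest on 36, 1, 0 and 19 counts, against 218, 221, 264 and 162 counts in FCGR4- libraries. Every FCGR4- library was above every FCGR4+ library, and the log2 fold change of -4.60 was both the lowest and the least precise of the 10 (SE 1.22). It was -5.82, -3.78, -3.65 and -5.69 without mouse 1, 2, 3 and 4. In mouse 3, no count was found in FCGR4+ cells, which allows up to 0.0479 CPM (3 counts) in that library; intervals and limits of this kind cover counting error only.

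*Clec9a*, the receptor with which cDC1 sense actin exposed on dead cells, was at 2.75, 0.499, 0.128 and 0.394 CPM in FCGR4+ and 2.49, 2.68, 1.33 and 1.73 CPM in FCGR4- libraries. The populations overlapped, because mouse 1 had the highest of all 8 values in FCGR4+ cells, while the other 3 mice were lower there by between -3.06 and -2.04 on the log2 scale. Its log2 fold change was -1.93 (SE 0.64), and -2.61 without mouse 1. Of its exon bases, 5.59% overlap *Clec1b*, and counting did not use strand, so reads there cannot be assigned to one gene. *Batf3*, the factor that cDC1 development requires, was at 9.80, 7.73, 8.38 and 9.08 CPM in FCGR4+ and 12.5, 8.23, 5.95 and 8.09 CPM in FCGR4- libraries. It was lower in FCGR4+ cells in mice 1 and 2 and higher in mice 3 and 4, and its log2 fold change was 0.05 (SE 0.20), a value that turned negative (-0.035) with library size alone as the scaling. It was the only one of the 10 genes with a value above 0.

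*Cd209a*, a lectin of cDC2 and of monocyte-derived cells, was the most abundant of the 10 in FCGR4- cells. It was at 4.73, 9.41, 2.71 and 3.94 CPM in FCGR4+ and 15.0, 51.7, 34.3 and 24.4 CPM in FCGR4- libraries. Both populations had their highest value in mouse 2 and did not overlap, and the log2 fold change was -2.60 (SE 0.32), with all 4 mice between -3.64 and -1.66. *Irf4*, a transcription factor of cDC2 and of plasma cells and activated T cells, was at 1.68, 0.478, 0.319 and 0.746 CPM in FCGR4+ and 2.06, 2.35, 3.90 and 2.49 CPM in FCGR4- libraries. The populations did not overlap, although mouse 1 differed by only -0.29 on the log2 scale and mouse 3 by -3.47. The log2 fold change of *Irf4* was -1.96 (SE 0.59).

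Among the genes of mature dendritic cells, *Fscn1*, which encodes the actin-bundling protein fascin, had the most even difference across mice. It was at 1.21, 0.790, 1.55 and 1.35 CPM in FCGR4+ and 4.14, 5.12, 9.61 and 4.26 CPM in FCGR4- libraries, with no overlap and a log2 fold change of -2.19 (SE 0.31). Its ratios within mice lay between -2.64 and -1.63. *Ccl17* was at 0.219, 0.291, 1.26 and 0.539 CPM in FCGR4+ and 0.661, 2.70, 2.34 and 0.688 CPM in FCGR4- libraries, so that the populations overlapped at a low level, and its log2 fold change was -1.47 (SE 0.59). *Ccl22* was at 3.27, 6.86, 1.18 and 2.43 CPM in FCGR4+ and 6.73, 24.5, 8.89 and 8.58 CPM in FCGR4- libraries. The highest FCGR4+ value of *Ccl22*, in mouse 2, was just above the lowest FCGR4- value, in mouse 1, and the log2 fold change was -1.89 (SE 0.31).

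The genes for both chemokines lie on chromosome 8, with 58753 bases between *Ccl22* (chr8:94745590-94751699) and *Ccl17* (chr8:94810453-94812036), both on the plus strand of mm10. *Cx3cl1*, a chemokine made mainly by endothelial and epithelial cells, lies between them and had a log2 fold change of -1.02 (SE 0.56, edgeR's quasi-likelihood test, adjusted p = 0.585). Within populations *Ccl22* and *Ccl17* did not vary together (r = -0.13 over 8 libraries, in the sense described below).

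**Figure D2:**
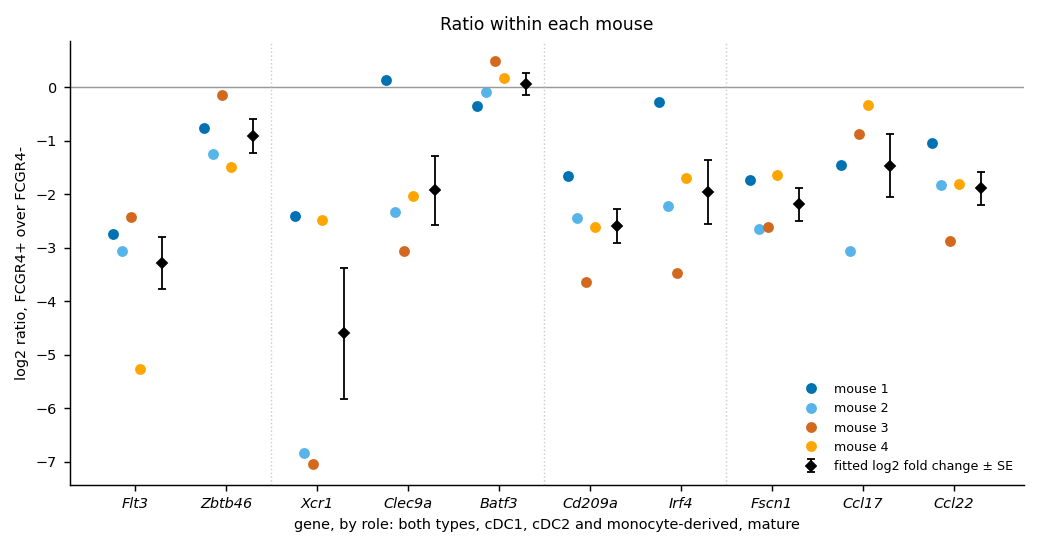
Log2 ratio of FCGR4+ over FCGR4- (log2 CPM with a prior count of 2) in each of 4 mice (coloured points) and the fitted log2 fold change with its SE (black diamonds) for the 10 genes, ordered by role. All 4 mice are below 0 for 8 genes, 3 are for *Clec9a* and 2 for *Batf3*.

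Per kilobase of gene length, which allows levels to be compared between genes, the order in FCGR4- libraries was headed by *Cd209a* with 19.8 ± 9.91 CPM per kilobase. *Batf3* (5.44 ± 1.72), *Ccl22* (5.24 ± 3.57), *Ccl17* (3.11 ± 2.10), *Fscn1* (1.92 ± 0.861) and *Flt3* (1.62 ± 0.399) followed, and each of these differed from its neighbour by less than the larger SD of the 2. After a gap beyond the SD came *Xcr1* (0.953 ± 0.403), *Clec9a* (0.625 ± 0.192), *Irf4* (0.551 ± 0.167) and *Zbtb46* (0.507 ± 0.111), again within the SD of their neighbours. In FCGR4+ libraries *Batf3* was first with 5.48 ± 0.560 CPM per kilobase, beyond the SD from *Cd209a* with 3.28 ± 1.85. *Xcr1* was last with 0.0573 ± 0.0664, and from *Cd209a* downwards no 2 neighbours differed by more than the larger SD.

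**Figure D3:**
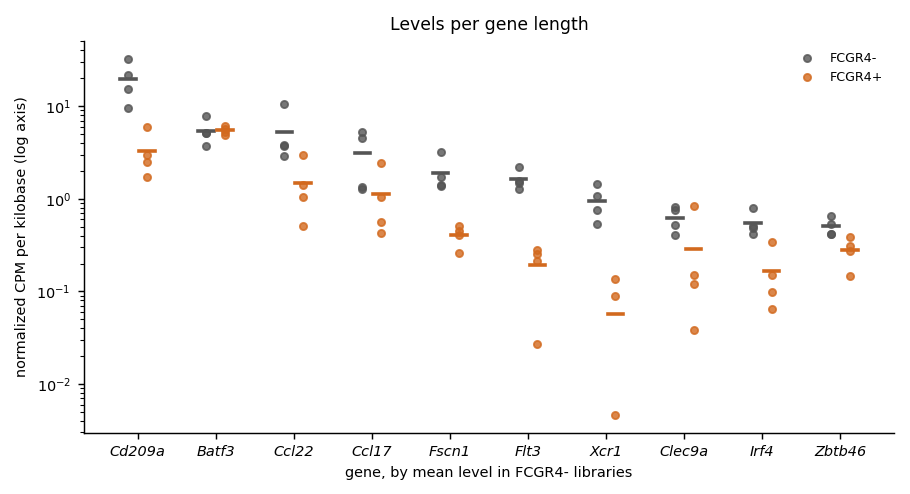
Normalized CPM per kilobase (log axis) of the 10 genes in 4 FCGR4- (grey) and 4 FCGR4+ (orange) libraries; horizontal lines are means, and the FCGR4+ library with 0 counts of *Xcr1* cannot be drawn on this axis. *Cd209a* heads the FCGR4- libraries and *Batf3* the FCGR4+ libraries.

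The summed level of all 10 genes was 28.2, 30.0, 20.5 and 20.3 CPM in the FCGR4+ libraries of mice 1 to 4 and 60.7, 123, 84.2 and 64.0 CPM in the FCGR4- libraries. Without *Batf3*, the gene with a value above 0, it was 18.4, 22.3, 12.1 and 11.2 CPM in the FCGR4+ libraries of mice 1 to 4 and 48.2, 115, 78.3 and 55.9 CPM in the FCGR4- libraries. The lowest FCGR4- sum was above the highest FCGR4+ sum in both cases. Both sums are a description, since the genes were chosen with the contrast known and *Batf3* was left out for its value in it. *Cd209a* was the largest part of the sum in every FCGR4- library, and the 2 chemokines with *Fscn1* came to between 3.99 and 7.94 CPM in FCGR4+ and between 11.5 and 32.4 CPM in FCGR4- libraries.

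Genes that mark other leukocytes and stromal cells moved between the populations as well. Beside the 1.19% of all genes called lower and 0.0819% called higher, 9 of 9 tested mast cell and basophil markers were called lower in FCGR4+ cells, their sum being between 14.5 and 30.4 CPM in FCGR4+ and between 391 and 2144 CPM in FCGR4- libraries. The basophil protease gene *Mcpt8* had too few counts to be tested, with 0 in all 4 FCGR4+ libraries and 71, 0, 1 and 13 counts in FCGR4- libraries. Of T and NK cell markers 8 of 15 were called lower (sums of 5.78 to 28.9 against 25.3 to 109 CPM), of fibroblast and preadipocyte markers 6 of 9 (147 to 293 against 368 to 1579 CPM), of neutrophil markers 5 of 7 (78.1 to 493 against 344 to 2100 CPM) and of B and plasma cell markers 3 of 8 (191 to 341 against 453 to 2534 CPM). Macrophage markers, against which the label of the cells was checked, summed to between 30782 and 55356 CPM in FCGR4+ and between 24675 and 48690 CPM in FCGR4- libraries, and were higher in FCGR4+ cells in all 4 mice. By edgeR 1 of 14 was called lower and 0 higher, while 10 were above 0, 7 were higher at an unadjusted p under 0.05 and DESeq2 called 7 higher, beside 3.1% and 1.12% of all genes. Of the remaining lists, 2 of 8 classical monocyte markers were called lower and 1 of 8 nonclassical monocyte markers higher, and 0 of 3 eosinophil, 0 of 7 adipocyte and 0 of 7 endothelial markers were called by edgeR (0, 1 and 3 at an unadjusted p under 0.05; 0, 0 and 1 by DESeq2; 1, 0 and 0 by edgeR's newer method). By DESeq2, which called 4.87% of all genes lower, 13 of 15 T and NK cell and 9 of 9 fibroblast and preadipocyte markers were lower. It called 5 of 7 neutrophil, 7 of 8 B and plasma cell and 4 of 8 classical monocyte markers lower. The part of these other cells in the dendritic values was not tested.

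The genes of the dendritic cell family outside the 10 were described with 6 lists holding 105 genes. Of these, 94 were tested, 8 were called lower and 0 higher in FCGR4+ cells by edgeR's quasi-likelihood test, and 72 had a log2 fold change below 0, with a median of -0.54. Of all tested genes 1.19% were called lower, 0.0819% higher and 50.3% were below 0, with a median of -0.0025. By DESeq2, 32 were called lower and 4 higher, and at an unadjusted p under 0.05 of edgeR 33 were lower and 5 higher. Of all tested genes, DESeq2 called 4.87% lower and 1.12% higher, and 6.67% were lower and 3.1% higher at that unadjusted p. The most abundant genes of the lists, such as *Sirpa* and *Id2*, are also made by macrophages, and the sum over all 6 was between 4165 and 4801 CPM in FCGR4+ and between 4026 and 4918 CPM in FCGR4- libraries.

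Of 19 tested genes of conventional dendritic cells in general, 3 were called lower (1.19% of all genes) and 17 were below 0 (50.3% of all genes), with a median of -1.83 (-0.0025 for all genes). DESeq2 called 10 lower and edgeR's newer method 9, beside 4.87% and 3.35% of all genes. *Dpp4*, the peptidase CD26 of cDC1 that is also found on preadipocytes and T cells, fell from 19.0 ± 5.78 to 5.11 ± 2.11 CPM (log2 fold change -1.92, SE 0.34, edgeR adjusted p = 0.0706). *H2-Oa* and *H2-Ob*, the chains of a regulator of peptide loading in dendritic and B cells, fell by 2.32 (SE 0.31, edgeR adjusted p = 0.0361) and 1.83 (SE 0.30, edgeR adjusted p = 0.0647) on the log2 scale; *H2-Oa* overlaps *BC051537* over 15.2% of its exon bases, and the reads there cannot be assigned to one gene. *Btla*, a receptor of lymphocytes and dendritic cells, was at 6.72 ± 3.03 CPM in FCGR4- and 0.849 ± 1.25 CPM in FCGR4+ libraries and did not pass (edgeR adjusted p = 0.201; DESeq2 adjusted p = 0.0253). *Itgax*, the integrin CD11c shared by dendritic cells and adipose macrophages, was at 62.7 ± 26.5 CPM in FCGR4- and 55.0 ± 21.5 CPM in FCGR4+ libraries (log2 fold change -0.20, SE 0.16, edgeR adjusted p = 0.674). *Ass1*, an enzyme of arginine synthesis, was at 37.1 ± 38.1 and 14.9 ± 5.80 CPM (log2 fold change -0.76, SE 0.47, edgeR adjusted p = 0.622).

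Of 14 tested cDC1 genes outside the 10, 1 was called lower, beside 1.19% of all genes, and 12 were below 0, beside 50.3% of all genes, with a median of -0.33. At an unadjusted p under 0.05, 3 were lower and 1 higher, beside 6.67% and 3.1% of all genes. DESeq2 called 4 lower and 1 higher, beside 4.87% and 1.12% of all genes. By edgeR's newer method 3 were lower, beside 3.35% of all genes. The gene called lower, *Gcsam*, is also made by germinal centre B cells. It was at 12.9, 10.4, 3.95 and 3.97 CPM in FCGR4- and at 0, 0.249, 0.383 and 0.270 CPM in FCGR4+ libraries (log2 fold change -5.01, SE 0.93, edgeR adjusted p = 0.0871). *Itgae*, the integrin CD103 of cDC1 and of tissue T cells, was at 1.28, 1.09, 2.83 and 3.16 CPM in FCGR4- libraries and at 0.185, 0, 0.0160 and 0 CPM in FCGR4+ libraries, and did not pass the threshold (edgeR adjusted p = 0.106), although it did without 1 of the mice (edgeR adjusted p = 0.0425) and by DESeq2 (adjusted p = 4.52e-07). *Irf8*, which cDC1, plasmacytoid cells and macrophages all express, was at 231 ± 14.5 and 229 ± 42.4 CPM (log2 fold change -0.03, SE 0.14). *Id2* and *Ifi205*, the most abundant of the list per length, had log2 fold changes of -0.05 (SE 0.22) and -0.34 (SE 0.23). *Cadm1*, of the same list, was higher in FCGR4+ cells in all 4 mice. Its log2 fold change was 0.58 (SE 0.16, edgeR adjusted p = 0.261, DESeq2 adjusted p = 0.0280). *Tlr3*, *Wdfy4* and *Naaa* had log2 fold changes of -0.01 (SE 0.24), -0.20 (SE 0.16) and 0.04 (SE 0.18).

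Of 12 tested cDC2 genes, 2 were called lower, beside 1.19% of all genes. Below 0 were 8 and above it 4, with a median of -0.25, while 50.3% of all genes were below 0. DESeq2 called 5 lower and edgeR's newer method 3, beside 4.87% and 3.35% of all genes. *Ltb*, the lymphotoxin subunit that lymphocytes make too, fell from 7.24 ± 4.57 to 1.48 ± 0.481 CPM (log2 fold change -2.15, SE 0.33, edgeR adjusted p = 0.0546). *Cd209b*, a relative of *Cd209a* known from marginal zone macrophages, fell from 2.94 ± 3.08 to 0.507 ± 0.470 CPM (log2 fold change -2.36, SE 0.42, edgeR adjusted p = 0.0746), with populations that overlapped. The cDC2 markers that macrophages also carry, *Sirpa*, *Clec10a* and *Mgl2*, had log2 fold changes of 0.12 (SE 0.15), 0.24 (SE 0.20) and -0.31 (SE 0.23) and did not pass.

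Of 26 tested genes of mature dendritic cells, 2 were called lower, beside 1.19% of all genes. Below 0 were 18 and above it 8, with a median of -0.33, while 50.3% of all genes were below 0. At an unadjusted p under 0.05, 10 were lower and 3 higher, beside 6.67% and 3.1% of all genes. DESeq2 called 9 lower and 2 higher, beside 4.87% and 1.12% of all genes. By edgeR's newer method 5 were lower, beside 3.35% of all genes. *Ccr7*, the receptor that guides mature dendritic cells and naive T cells to lymph nodes, was at 5.44, 12.1, 24.2 and 15.1 CPM in FCGR4- and at 0.691, 1.37, 2.73 and 0.415 CPM in FCGR4+ libraries. Its populations did not overlap, its log2 fold change was -3.54 (SE 0.40, edgeR adjusted p = 0.0195). *Aldh1a2*, an enzyme of retinoic acid synthesis, fell from 21.1 ± 13.2 to 8.66 ± 4.36 CPM (log2 fold change -1.20, SE 0.18, edgeR adjusted p = 0.0544). *Cd83* and *Anxa3*, abundant in all libraries, had log2 fold changes of 0.30 (SE 0.17) and 0.33 (SE 0.13) and did not pass. The log2 fold changes of this list ran from -3.54 to 2.57, and the gene at 2.57 did not pass by edgeR's quasi-likelihood test.

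With each of the 4 mice left out in turn, *Ccr7* passed all 4 times (highest edgeR adjusted p = 0.0652), *H2-Oa* and *Gcsam* 2 times (highest 0.138 and 0.271), *Ltb* and *Aldh1a2* 1 time (0.184 and 0.185) and *Dpp4*, *H2-Ob* and *Cd209b* 0 times (0.142, 0.181 and 0.260). Without the pairing by mouse, *Dpp4*, *H2-Oa* and *Gcsam* passed (edgeR adjusted p = 0.0911, 0.0947 and 0.0911) and the other 5 did not, *Ccr7* being at 0.107.

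Of 11 tested plasmacytoid genes none passed by edgeR's quasi-likelihood test, and 8 were below 0, beside 50.3% of all genes, with a median of -1.41. At an unadjusted p under 0.05, 4 were lower and 1 higher, beside 6.67% and 3.1% of all genes. DESeq2 also called 4 lower and 1 higher, beside 4.87% and 1.12% of all genes. By edgeR's newer method, which called 3.35% of all genes lower, 3 of these plasmacytoid genes were lower. Their defining receptor *Siglech* was at 0.607 ± 0.460 CPM in FCGR4- and 0.166 ± 0.305 CPM in FCGR4+ libraries, and *Ly6d*, shared with B cells, was at 3.55 ± 2.09 and 0.780 ± 0.342 CPM (edgeR adjusted p = 0.153; DESeq2 adjusted p = 0.00153).

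Of 12 tested ligands, receptors and regulators of dendritic cells none passed either, and the median was -0.21. At an unadjusted p under 0.05, 1 was lower, beside 6.67% of all genes, and DESeq2 and edgeR's newer method called 0. *Flt3l*, the ligand of FLT3, was at 2.59 ± 0.575 CPM in FCGR4- and 2.65 ± 0.795 CPM in FCGR4+ libraries (log2 fold change 0.00, SE 0.37), while its receptor gene had the difference given above. *Xcl1*, the ligand of XCR1, and *Ccr4*, the receptor of CCL17 and CCL22, had too few counts to be tested: *Xcl1* was at 0.277 ± 0.183 and 0.0840 ± 0.157 CPM, and *Ccr4* at 0.0568 ± 0.0496 and 0.0168 ± 0.0337 CPM, in FCGR4- and FCGR4+ libraries. *Csf2ra*, a receptor chain for GM-CSF, and *Spi1*, which encodes PU.1, had log2 fold changes of -0.19 (SE 0.16) and -0.05 (SE 0.13).

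**Figure D4:**
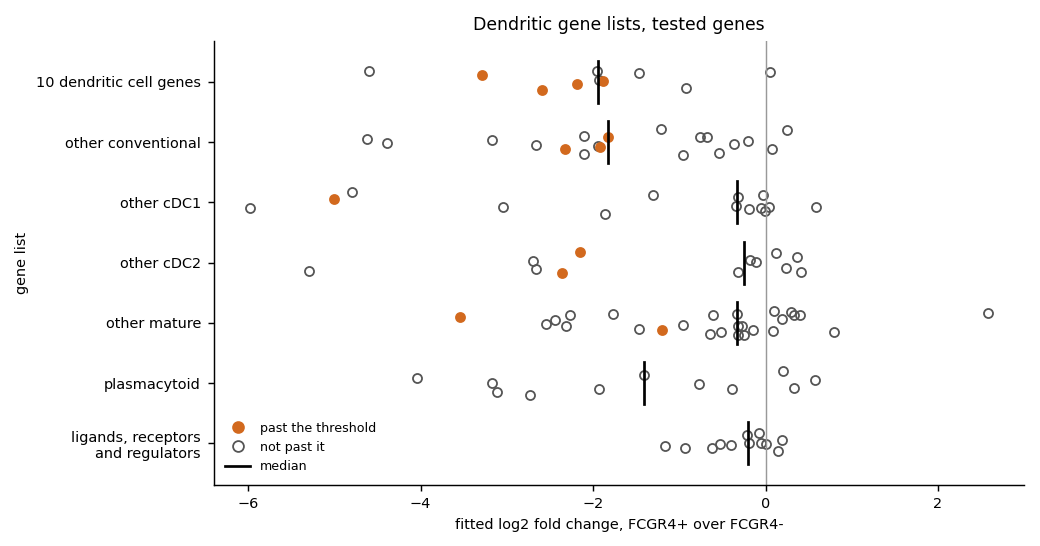
Fitted log2 fold change (FCGR4+ over FCGR4-) of each tested gene in the 10 dendritic cell genes and the 6 other lists; filled points passed an adjusted p of 0.1 (edgeR), open points did not, and black lines are medians. Every filled point lies below 0, and the cDC1, cDC2, mature and regulator lists have medians between -0.33 and -0.21.

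With the difference between populations removed, the 10 genes still varied between libraries. For each gene the deviation of log2 CPM from the mean of its population was taken in all 8 libraries, and these deviations were compared between genes as a description, since the 2 libraries of a mouse share the animal. Of 45 pairs of genes, 26 had a Pearson r above 0, the median was 0.08 and the range was -0.62 (*Ccl17* and *Clec9a*) to 0.93 (*Ccl22* and *Cd209a*). *Flt3* and *Zbtb46* varied together (r = 0.91), with the lowest value of both in the FCGR4+ library of mouse 4. The cDC1 genes *Xcr1* and *Clec9a* (r = 0.72) varied with *Irf4* (r = 0.84 and 0.76), all highest in the FCGR4+ library of mouse 1, while *Batf3* had r = 0.19 with *Xcr1* and 0.39 with *Clec9a*. Few counts lie behind several of these values, as for *Xcr1* in FCGR4+ cells.

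In the FCGR4+ library of mouse 1, 9 of the 10 genes were above the mean of their population, and in the FCGR4- library of mouse 4 none was. The FCGR4- library of mouse 2 had 7 above the mean, and the other 5 libraries had between 3 and 5. The genes whose deviations were most like the mean standardized deviation of the 10 were *Igsf6* (r = 0.98), *Mtm1* (0.97), *Ppp2cb* (0.97), *Adam9* (0.96) and *Atp13a3* (0.96) over 8 libraries. All 5 were present at more than 15 CPM in every library, and none passed the threshold between the populations by edgeR's quasi-likelihood test (log2 fold changes from -0.13 to 0.14). Their r values are the 5 highest from a search of the 17095 tested genes, the 10 left out, and were not tested against chance.

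**Figure D5:**
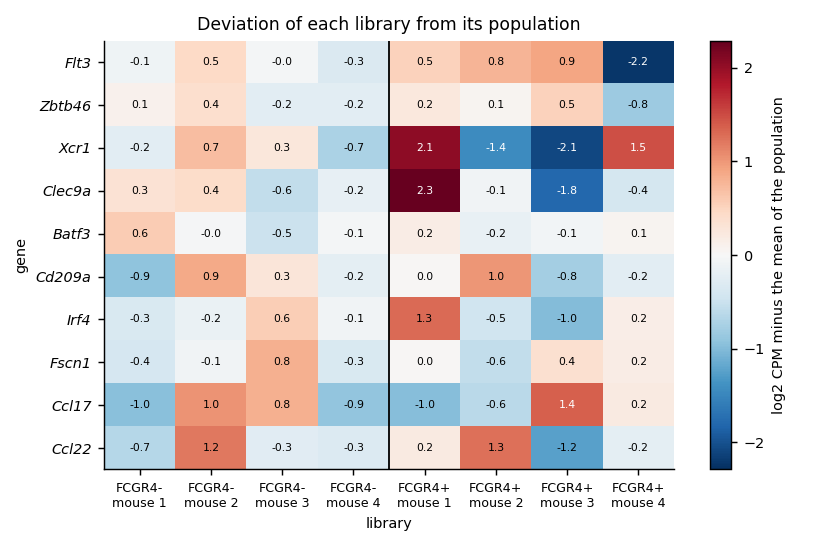
Deviation of log2 CPM from the mean of the population for the 10 genes (rows) in 4 FCGR4- and 4 FCGR4+ libraries (columns); red is above and blue below the mean. *Xcr1*, *Clec9a* and *Irf4* are all highest in the FCGR4+ library of mouse 1, and *Flt3* is lowest in that of mouse 4.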

How the data were processed

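Bulk RNA-Seq was made by the authors from 8 libraries, an FCGR4+ and an FCGR4- population from each of 4 mice, with total RNA from cells sorted into Trizol. Reads were mapped by the authors to mm10 with STAR and counted per gene with featureCounts 1.6.3 and GENCODE release M18; the deposited values are these counts, with pairs that map to several places counted at each and strand not used. Gene length is the deposited one. Every per-sample column was used.

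Genes had to reach 10 counts in 4 or more libraries to be kept. Normalized CPM used TMM factors (0.938 to 1.11), and 3 counts correspond to 0.0439 to 0.0882 CPM. The paired test was the quasi-likelihood F test of edgeR 4.0.16 under R 4.3.3, the mouse being a block, and p-values were adjusted by Benjamini-Hochberg over all tested genes, with a threshold of 0.1; scripts were tested on simulated data. Libraries of the same mouse deviated together (r from 0.291 to 0.428, against -0.336 to 0.0116 between different mice). Because deviations were taken from each population's mean, a positive r within mice brings a lower r between mice with it. No libraries of a population agreed within sampling noise (lowest chi-square per degree of freedom 76.2). The labels name separate mice.

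The 10 genes and all lists were chosen with earlier results of these data known. Genes named were the 10, *Fcgr4*, in each other list those past the threshold and the 2 most abundant per length, 11 textbook partners and markers, and the 5 genes that varied most like the 10; *Btla*, *Cx3cl1* and the remaining genes were added after their values were seen. Promoter sequences are from RefSeq (GRCm38.p6), and overlapping exon bases were taken from the exons of the deposited annotation, GENCODE release M18. Alternatives were DESeq2 1.42.0, other scalings and filters, edgeR's newer quasi-likelihood method, a threshold of 0.05, no block, and mice left out.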

Additional observations from a re-analysis of the deposited data

Results flagged for a closer look

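In the FCGR4+ libraries, *Flt3* stood apart in mouse 4. Its log2 CPM there was -2.31, from 8 counts, against 0.45 to 0.83 in the other 3 mice, so that the gap took up 0.880 of the whole range, above Dixon's critical value for 4 samples. Of 33 groups of 4 values examined in this way this was 1 flagged, and chance alone would flag about 1.65.

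*Batf3* had log2 ratios below 0 in both mice of one animal ID prefix (mice 1 and 2, mean -0.22) and above 0 in both mice of the other (mice 3 and 4, mean 0.33), a difference of -0.55 that was not tested.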

How the results depend on the processing

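The number of genes past the threshold was 217 (14 higher, 203 lower), with 4 of the 10 dendritic cell genes and 8 of the other dendritic genes called lower. The corresponding numbers were 1024, 7 and 32 by DESeq2, 1054, 7 and 27 with no filter on low counts, 629, 5 and 23 with edgeR's newer method, and 76, 2 and 2 at a threshold of 0.05. With mice 1 and 2 alone they were 113, 2 and 2, and with mice 3 and 4 alone 113, 1 and 1. Without the replicate block, that is without the pairing by mouse, they were 48, 1 and 3. Leaving out each mouse gave 84 to 163 genes, 1 to 4 of the 10 and 1 to 5 of the others. The shift in the median of all genes with library size alone was to -0.09. The cause of these changes was not tested.

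Of 127 alternative values of the 10 log2 fold changes, 103 kept their direction and their side of the threshold, 14 kept the direction and no longer passed, 7 newly passed and 3 changed sign. The 14 were of *Flt3*, *Cd209a*, *Fscn1* and *Ccl22*. The 7 were of *Xcr1*, *Clec9a* and *Irf4*, each by DESeq2 and with no filter on low counts, and *Xcr1* also by edgeR's newer method. The 3 that changed sign were all *Batf3*, at -0.035 with library size alone, -0.22 with mice 1 and 2 alone and -0.10 without mouse 3. The *Batf3* values with 1 mouse left out ran from -0.10 to 0.19. Counts in FCGR4+ libraries were low for *Xcr1* (0 to 36), *Clec9a* (8 to 163), *Ccl17* (13 to 79), *Flt3* (8 to 109), *Irf4* (20 to 100) and *Fscn1* (38 to 97). Whether depth limits these values was not tested.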

Other observations

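Among the plasmacytoid genes, *Bst2*, which interferon induces in many cell types, set the summed level and followed the animal ID prefixes more than the populations. It was at 44.1 and 67.4 CPM in the FCGR4+ libraries of mice 1 and 2 and at 201 and 237 CPM in those of mice 3 and 4, against 34.9, 57.8, 111 and 129 CPM in the FCGR4- libraries of mice 1 to 4. In each of 4 mice the FCGR4+ value was above the FCGR4- value, with a log2 fold change of 0.57 (SE 0.16, edgeR's quasi-likelihood test, adjusted p = 0.271; DESeq2, adjusted p = 0.0363).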
